A study of Mus musculus with 2 samples.

Results

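The HOX genes are the 39 homeobox genes of the Hoxa, Hoxb, Hoxc and Hoxd clusters, which lie on mouse chromosomes 6, 11, 15 and 2. They were found through the accessions of the array probes in a RefSeq gene table, as every gene whose symbol is a cluster letter with a paralogue number. They are 39 of the 32103 genes and 44 of the 39429 gene probes on the array. Of these, 36 genes were measured above background in at least 1 condition, and Hoxb1, Hoxc12 and Hoxc13 were not.

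The samples were explanted ureters of wildtype NMRI mouse embryos of mixed sex, taken at E12.5 and kept in culture for 18 h on transwell membranes. The medium held 10 µg/ml NOGGIN, an extracellular antagonist that traps bone morphogenetic proteins (BMPs) before they reach a receptor, or no NOGGIN in the control cultures. RNA of NOGGIN and of control cultures was hybridised together on each of 2 Agilent 2-colour arrays, replicates 1 and 2, with the dyes exchanged between them. The labels do not say how many embryos entered a culture or whether the replicates came from separate litters, so the spread between the arrays may be technical. An explant holds mesenchyme, epithelium and other cells together, and fewer cells of a type cannot be told apart from less RNA per cell in any value below.

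HOX proteins are transcription factors that give cells their position along the body axis and within outgrowths such as the limb and the genital tubercle. Genes at one end of a cluster, with low paralogue numbers, are expressed towards the head, and those at the other end, with high numbers, towards the tail. The kidney and its ducts arise from intermediate mesoderm of the trunk, and in the mouse the Hox11 paralogues Hoxa11, Hoxc11 and Hoxd11 act together in the mesenchyme that induces the kidney. HOX proteins bind DNA with cofactors of the PBX and MEIS families, and the clusters are held silent by Polycomb complexes where they are not used.

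Values are given on 2 scales. A log2 signal is the normalised intensity of 1 channel on 1 array, and levels of different genes are not compared, because probes differ in brightness. A log2 ratio is the NOGGIN-labelled minus the control-labelled log2 signal on 1 array, and its mean is given ± SD over the 2 arrays (n = 2). The channels are called NOGGIN-labelled and control-labelled because the direction is not settled. It follows the dye that the labels give each culture, which puts the BMP target genes Id1, Id2 and Id3 and the feedback inhibitor Smad6 higher in the NOGGIN-labelled channel, by mean log2 ratios of 1.98, 2.73, 1.45 and 1.01. A BMP antagonist would lower such genes. Under the same labels the smooth muscle markers Acta2, Tagln, Myh11 and Cnn1 were lower, at -1.16, -1.09, -0.91 and -0.93. Which direction is right was not tested. In the authors' deposited table the sign is turned, with signed fold changes for Id2 of -4.19 on replicate 1 and -10.5 on replicate 2. Of 72 HOX gene values (36 genes on 2 arrays), 69 have the opposite sign in the authors' deposited table, and the others are -0.012 for Hoxa10 and -0.012 for Hoxd4 on replicate 2 and -0.00055 for Hoxb5 on replicate 1. If the labels are wrong, "higher" and "lower" change places throughout, with sizes and p-values as given.

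Most HOX genes differed little between the channels, as did most genes on the array. Of the 36 measured, 3 passed an adjusted p of 0.05 in limma, a linear model test on the log2 ratios, against 7.97% of all 21337 genes tested. All 3 were higher in the NOGGIN-labelled channel, where 3.95% of all genes passed: Hoxc6 by 0.78 ± 0.037, Hoxc4 by 0.71 ± 0.054 and Hoxb13 by 1.06 ± 0.62 (SD, n = 2). None was lower by this test, where 4.03% of all genes passed. An unadjusted limma p under 0.05 was reached by 15 HOX genes, against 23.2% of all genes: 11 with positive ratios, against 12.2%, and 4 with negative ones, against 11%. The median log2 ratio of the 36 genes was -0.010, against 0.00083 for all genes. Within 0.5 of 0 lay 33 of the 36, and 20113 of all 21337 genes. Their median absolute log2 ratio was 0.159, against 0.101 for all genes.

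On both arrays the same sign was seen for 31 of the 36 HOX genes (86.1%), against 66.7% of all genes. The sign was positive for 15, against 33.6% of all genes, and negative for 16, against 33.1%. The signals of the groups did not overlap for 24 HOX genes, against 51.2% of all genes. Both NOGGIN-labelled signals lay above both control-labelled ones for 14 of them, against 25.5% of all genes, and below both for 10, against 25.7%. The probes of the 36 HOX genes were brighter, with a median log2 signal of 12.39 against 11.36 for all genes. Whether brightness bears on these shares, or on those at an unadjusted p, was not tested. Hoxc4, Hoxc6 and Hoxb13 were also the 3 HOX genes that differed by 1.5-fold or more with 1 sign on both arrays, a criterion without a model that 2.9% of all genes met.

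**Figure D1:**
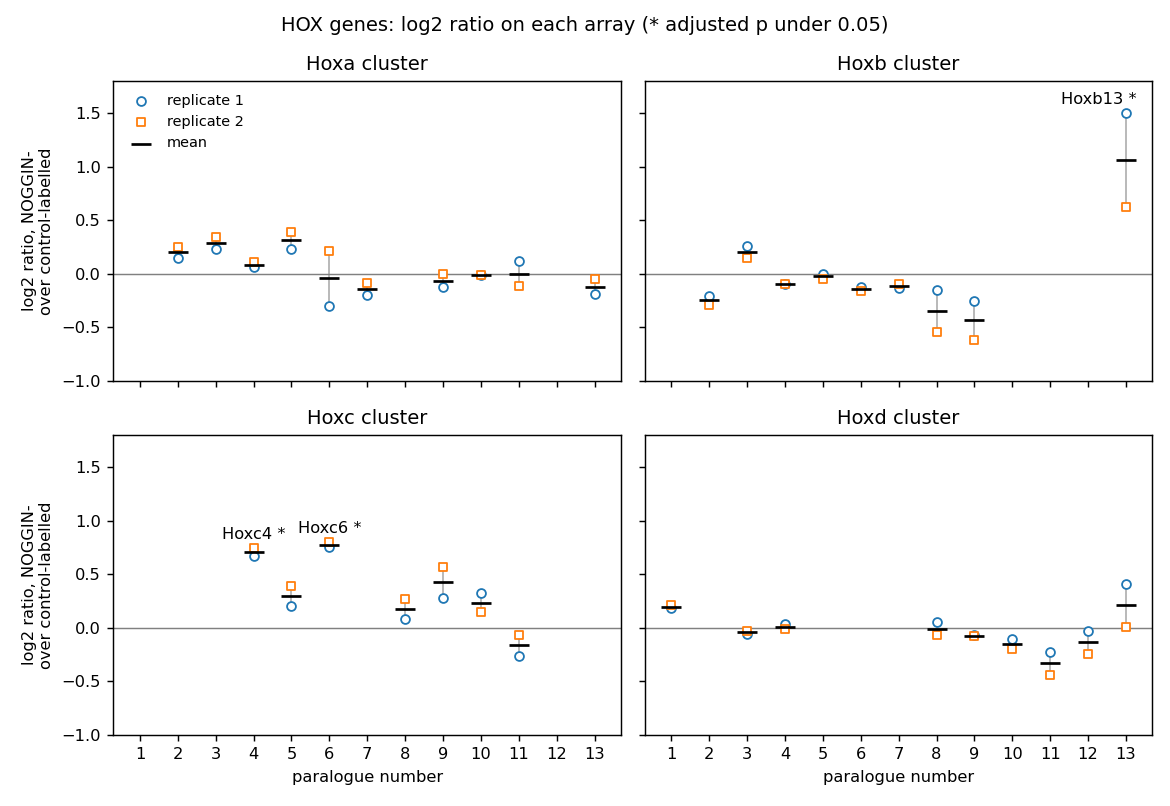
Log2 ratio (NOGGIN-labelled over control-labelled) of measured HOX genes by paralogue number, 1 panel per cluster. Circles are replicate 1, squares replicate 2 and bars their mean. Hoxc4 and Hoxc6 lie between 0.67 and 0.80 on both arrays, Hoxb13 at 1.504 and 0.62, and most others close to 0.

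The Hoxc genes were the cluster with the highest median, 0.30 over 7 measured genes, and 6 of these 7 had positive ratios on both arrays, against 33.6% of all genes. With Hoxc5, for which only a bound exists, set at that bound, the median was 0.27. The cluster medians were 0.0013 for the 11 Hoxa genes, -0.11 for 9 Hoxb genes and -0.041 for the 9 Hoxd genes. Differences between clusters were not tested, since genes of a cluster share their regulation and are not replicates.

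Hoxc6, which marks cervical and thoracic levels and is active in the mammary gland, had log2 signals of 11.71 and 11.75 in the NOGGIN-labelled channels of replicates 1 and 2, against 10.96 and 10.94 in the control-labelled channels. The log2 ratio was 0.75 on replicate 1 and 0.80 on replicate 2 (adjusted p = 0.00803, limma), with no overlap between the groups. Single spots of its probe ran from 0.64 to 0.80 on replicate 1 and from 0.76 to 0.84 on replicate 2.

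Hoxc4, which acts at cervical levels of the spine, had log2 signals of 12.69 and 12.75 in the NOGGIN-labelled channels and 12.02 and 12.00 in the control-labelled channels. Its log2 ratios were 0.67 and 0.75 (adjusted p = 0.0102, limma), and its single spots lay between 0.60 and 0.75 on replicate 1 and between 0.70 and 0.79 on replicate 2. The NOGGIN-labelled signals lay above the control-labelled ones on both arrays, with a gap larger than the spread within either group. Its promoter, from 250 bases before to 50 after the annotated start, is shown beside those of its paralogues Hoxb4 and Hoxd4, which did not pass, because Hoxc4 was the single passing gene with an entry in the RefSeq promoter table used here. All lie on the + strand of GRCm38.p6, at chr15:103034145-103034444 for Hoxc4, chr11:96318017-96318316 for Hoxb4 and chr2:74721728-74722027 for Hoxd4. Capitals mark the sequence AGGTCA on the opposite strand, a core sequence that retinoic acid receptors can bind.
Hoxc4: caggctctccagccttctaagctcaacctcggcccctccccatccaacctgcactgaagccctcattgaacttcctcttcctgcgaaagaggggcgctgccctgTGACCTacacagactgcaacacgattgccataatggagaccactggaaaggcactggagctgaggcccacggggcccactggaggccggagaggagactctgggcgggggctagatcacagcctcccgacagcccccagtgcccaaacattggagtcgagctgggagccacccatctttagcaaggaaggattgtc
Hoxb4: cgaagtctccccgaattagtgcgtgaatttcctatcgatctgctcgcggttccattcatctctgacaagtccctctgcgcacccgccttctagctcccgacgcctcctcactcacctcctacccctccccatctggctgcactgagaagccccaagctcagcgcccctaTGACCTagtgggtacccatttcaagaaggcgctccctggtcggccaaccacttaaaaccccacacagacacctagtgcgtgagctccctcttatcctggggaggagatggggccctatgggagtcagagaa
Hoxd4: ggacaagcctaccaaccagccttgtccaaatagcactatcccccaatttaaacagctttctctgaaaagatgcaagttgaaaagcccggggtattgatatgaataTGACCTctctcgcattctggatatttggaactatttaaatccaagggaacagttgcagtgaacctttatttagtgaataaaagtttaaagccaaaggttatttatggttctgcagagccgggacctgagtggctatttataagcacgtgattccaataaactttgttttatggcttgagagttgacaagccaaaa
This motif lies at -146 from the start in Hoxc4, -81 in Hoxb4 and -145 in Hoxd4.

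The table held 24 promoters of 22 HOX genes. Searched on both strands, AGGTCA was in 7 of these 24 (29.2%) and in 16.3% of 32851 promoters of the same length. The CCAAT box, written CCAAT, was in 62.5% of HOX promoters and 37.4% of all. For the GC box, GGGCGG, the shares were 41.7% and 35.7%, and for the TATA box, TATAAA, 16.7% and 13.6%. TGATNNAT, a site for HOX with PBX, was in 16.7% of HOX promoters and 8.85% of all, and GGCGCC, a GC element that SMAD proteins bind, in 20.8% and 11.9%. The median GC content was 57.6% in HOX promoters and 52.7% in all. Matches of GGGCGG and GGCGCC can share bases. The group 4 promoters and the motifs were chosen after the ratios were known. A match is a description of the sequence, not a measured site.

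**Figure D2:**
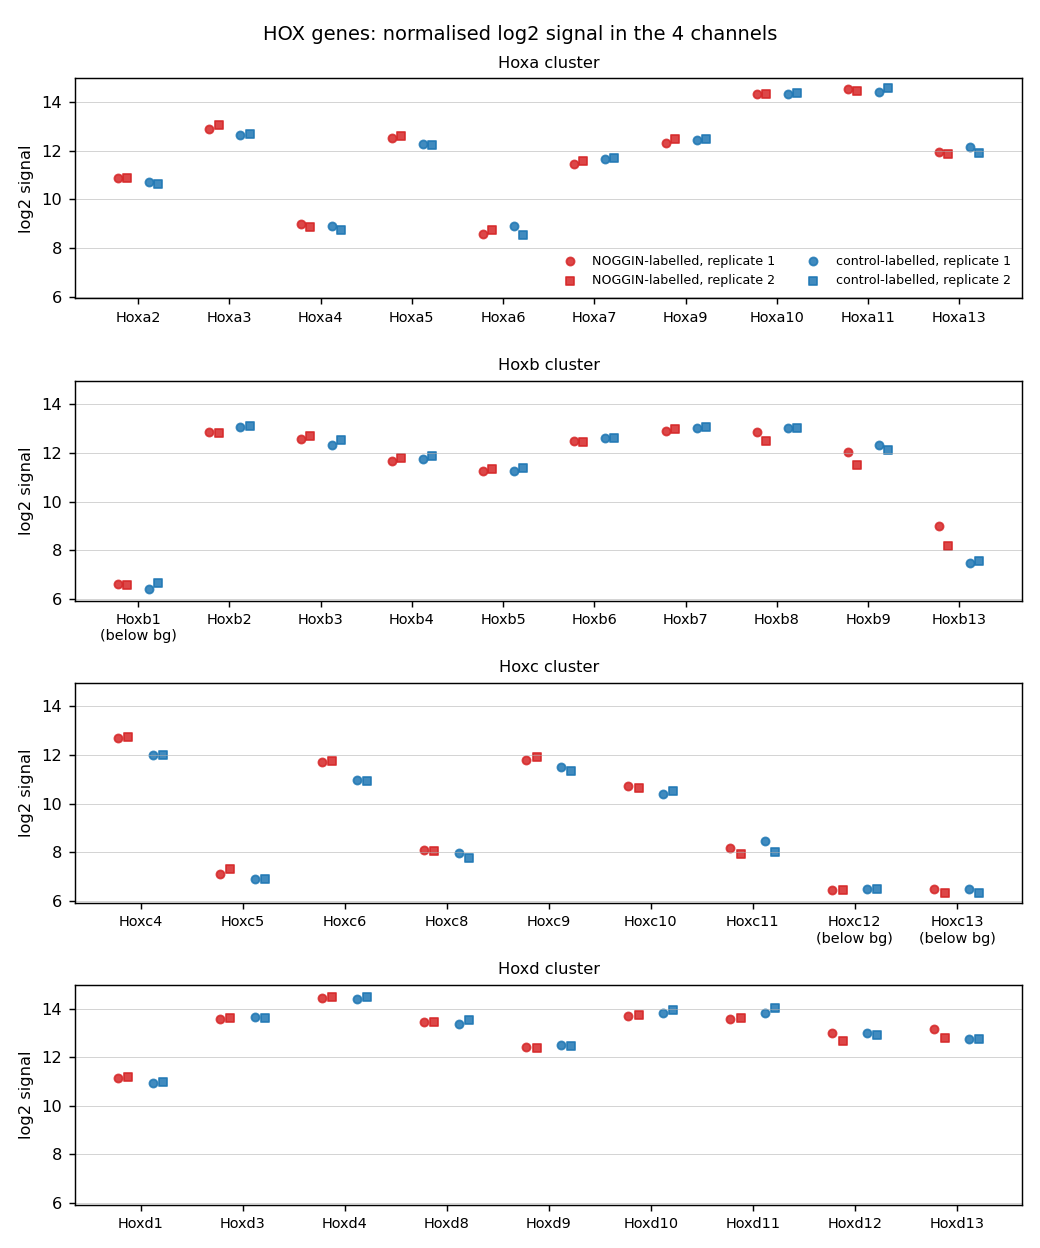
Normalised log2 signal of HOX genes in the 4 channels, 1 panel per cluster, with NOGGIN-labelled channels (red) left of control-labelled ones (blue), circles for replicate 1 and squares for replicate 2. The 4 points lie close together for most genes, and the red points of Hoxc4 (12.69 and 12.75) and Hoxc6 (11.71 and 11.75) lie above the blue ones.

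The other genes of the Hoxc cluster had smaller ratios and did not pass. Hoxc9, which sets thoracic motor neuron identity, had log2 signals of 11.78 and 11.92 in the NOGGIN-labelled channels and 11.50 and 11.35 in the control-labelled channels, a log2 ratio of 0.42 ± 0.21 (adjusted p = 0.0692, limma). Its signals did not overlap between the groups, as in 51.2% of all genes. Its adjusted p fell just under 0.05 without background correction (0.0499, limma), with an intensity trend in limma (0.0498) and in a separate-channel model (0.0499). Hoxc5 was dim, with log2 signals of 7.10 and 7.31 in the NOGGIN-labelled channels and 6.90 and 6.91 in the control-labelled channels. In the control-labelled channel of replicate 1, a share of 0.25 of its spots was well above background, and all were on replicate 2. Its difference is therefore a bound, at least 1.20-fold higher, and did not pass (adjusted p = 0.110, limma). Hoxc10, a gene of lumbar levels, had a log2 ratio of 0.23 ± 0.12, and Hoxc8, a gene of lower cervical and thoracic levels, 0.18 ± 0.13. Hoxc11, one of the kidney-inducing Hox11 genes, had -0.17 ± 0.14 and was the single measured Hoxc gene below 0 on both arrays. Hoxc12 and Hoxc13, the last a gene of hair and nail, had no channel above background, with log2 signals between 6.34 and 6.51.

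The 4 measured central genes of this cluster (Hoxc4, Hoxc5, Hoxc6 and Hoxc8) had a median log2 ratio of 0.50, or 0.49 with Hoxc5 at its bound. The paralogues of Hoxc4 and Hoxc6 in the other clusters did not pass. In group 4, Hoxa4 had 0.085 ± 0.039, Hoxb4 -0.095 ± 0.0025 and Hoxd4 0.011 ± 0.033. In group 6, Hoxb6 had -0.14 ± 0.031, and Hoxa6 differed in sign between the arrays, at -0.30 and 0.21. The difference between paralogues was not tested.

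Hoxb13, the last gene of the Hoxb cluster, known from the tail bud, the hindgut and the prostate, was dim but above background in all 4 channels. Its log2 signals were 8.98 and 8.18 in the NOGGIN-labelled channels and 7.47 and 7.56 in the control-labelled channels. The groups did not overlap, but the log2 ratio was 1.504 on replicate 1 and 0.62 on replicate 2 (adjusted p = 0.0466, limma). An adjusted p this close to the threshold of 0.05 may be too small, since 8.8% of limma's calls were false in a single simulated run. That run called 216 genes, against 1701 in the data, so it cannot show whether the p of Hoxb13 is too small. Whether the excess of false calls is more than the scatter of such runs was not tested. Single spots within an array ran from 1.38 to 1.63 on replicate 1, where 3 spots were left, and from 0.60 to 0.64 on replicate 2, so the arrays differed by more than their spots. Its call was lost in robust limma (adjusted p = 0.0548), in the separate-channel model (0.0587), with the authors' deposited table (0.0553, turned to the labels' direction) and with median centring in place of loess (0.204). In the authors' deposited table its signed fold changes are -4.68 and -1.98.

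The rest of the Hoxb cluster leaned to negative ratios, with 7 of its 9 measured genes below 0 on both arrays (33.1% of all genes), and no gene of it passed lower. Hoxb9, a thoracic gene, had log2 signals of 12.05 and 11.51 in the NOGGIN-labelled channels and 12.31 and 12.13 in the control-labelled channels, a log2 ratio of -0.44 ± 0.25 (adjusted p = 0.0827, limma). Hoxb8, known in mice from grooming behaviour and blood progenitors, had log2 signals of 12.87 and 12.48 in the NOGGIN-labelled channels and 13.02 and 13.02 in the control-labelled ones, a log2 ratio of -0.35 ± 0.28 (adjusted p = 0.150). In both genes the groups did not overlap, as in 51.2% of all genes. The ratio on replicate 2 (-0.62 for Hoxb9 and -0.54 for Hoxb8) was larger than on replicate 1 (-0.26 and -0.15). Hoxb2, a hindbrain gene, had -0.25 ± 0.057. Hoxb7, whose promoter drives widely used transgenes in the Wolffian duct and ureteric bud, had -0.11 ± 0.026, and Hoxb5 -0.023 ± 0.032. Hoxb3, a gene of the hindbrain and pharynx, was the other gene above 0 on both arrays, at 0.21 ± 0.079. Its dimmer probe did not share this, with -0.12 on replicate 1 and 0.023 on replicate 2. Hoxb1, a gene of the hindbrain, was not above background by the rule used, with log2 signals of 6.61 and 6.56 in the NOGGIN-labelled and 6.41 and 6.65 in the control-labelled channels.

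Among the 11 Hoxa genes 0 passed, with 3 at an unadjusted p under 0.05 in limma, against 23.2% of all genes, and Hoxa5 and Hoxa3 had the largest ratios. Hoxa5, which acts in the lung and the cervical spine, had log2 signals of 12.52 and 12.62 in the NOGGIN-labelled channels and 12.28 and 12.23 in the control-labelled channels, a log2 ratio of 0.31 ± 0.11 (adjusted p = 0.0920, limma). Hoxa3, needed for thymus and parathyroid, had log2 signals of 12.90 and 13.05 in the NOGGIN-labelled channels and 12.67 and 12.71 in the control-labelled ones, a log2 ratio of 0.29 ± 0.082 (adjusted p = 0.0990). Signals of the groups did not overlap in either gene, as in 51.2% of all genes. Hoxa2, which patterns the second pharyngeal arch, had 0.20 ± 0.071. Hoxa7 had -0.14 ± 0.076. Among the genes of the posterior end, Hoxa9 had -0.064 ± 0.091, Hoxa10, known from the uterus, -0.013 ± 0.00021, Hoxa11 0.0013 ± 0.16, and Hoxa13, a gene of the hindgut, the digits and the lower urogenital tract, -0.12 ± 0.10. The second probe of Hoxa13 gave -0.087 ± 0.078 and that of Hoxa9 0.028 ± 0.092.

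Of the 9 Hoxd genes 0 passed, with 2 at an unadjusted p under 0.05 in limma, against 23.2% of all genes. Hoxd11, which acts with Hoxa11 and Hoxc11 in the kidney and with Hoxa11 in the forearm, had log2 signals of 13.59 and 13.60 in the NOGGIN-labelled channels and 13.81 and 14.04 in the control-labelled channels, a log2 ratio of -0.33 ± 0.16 (adjusted p = 0.0959, limma). Its second probe had -0.21 ± 0.082, and on both arrays the 2 probes had the same sign. The neighbours Hoxd10, a gene of lumbar motor neurons, and Hoxd12, a limb gene, had -0.15 ± 0.070 and -0.14 ± 0.15. Hoxd13, a gene of the digits and the genital tubercle, had log2 ratios of 0.41 on replicate 1 and 0.010 on replicate 2. Hoxd1 had 0.20 ± 0.017, Hoxd3 -0.041 ± 0.019, Hoxd8 -0.0080 ± 0.086 and Hoxd9 -0.075 ± 0.0050.

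By position along the clusters, the 7 measured genes of paralogue numbers 1 to 3 had a median log2 ratio of 0.20. On both arrays 5 of them were above 0, against 33.6% of all genes, and 2 below 0, against 33.1%. The 15 genes numbered 4 to 8 had a median of -0.0080, and the 14 measured genes numbered 9 to 13 a median of -0.069. Of these 14, 4 were above and 8 below 0 on both arrays, beside the same shares of 33.6% and 33.1%. The Hox11 group had a median of -0.17, made of Hoxa11, Hoxc11 and Hoxd11. Groups 7, 11 and 12, with 2, 3 and 1 measured genes, had no gene above 0 on both arrays. These medians carry no test. In the RefSeq table Hoxa3 overlaps Hoxa4, Hoxa5 and Hoxa6, Hoxb3 overlaps Hoxb4, Hoxd3 overlaps Hoxd4 and Hoxd10 overlaps Hoxd11, and how far their probes tell the transcripts apart was not tested. The noncoding genes of the clusters, matched by accession and chosen after values were seen, did not pass either. Hoxaas2 had 0.32 ± 0.062 (adjusted p = 0.0752, limma), Hottip 0.18 ± 0.21, Hoxd3os1 0.068 ± 0.061, Hoxa11os -0.12 ± 0.042, Hoxb5os -0.18 ± 0.18 and Evx1os -0.20 ± 0.38.

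**Figure D3:**
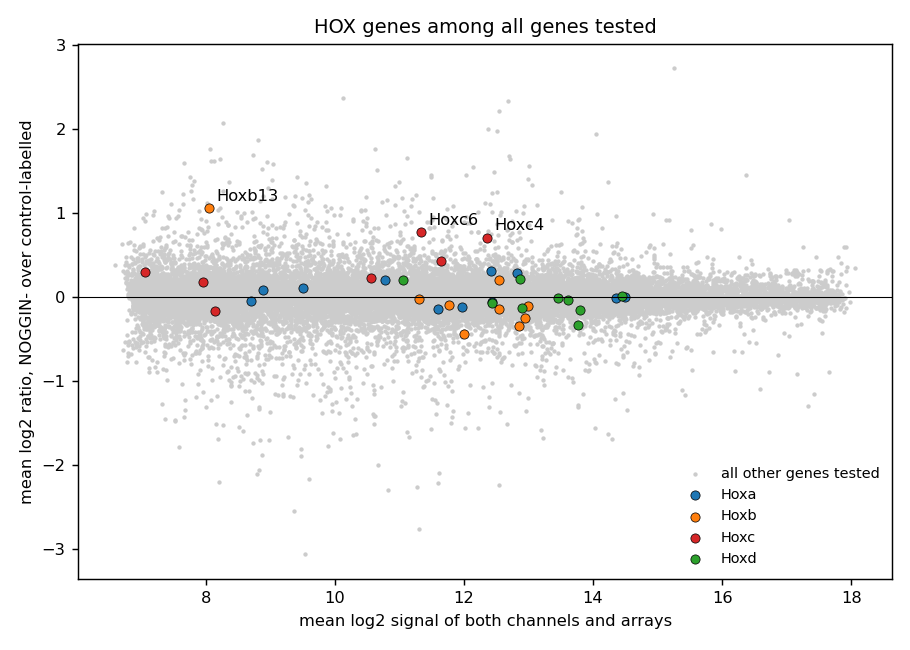
Mean log2 ratio against mean log2 signal of both channels and arrays for 21337 genes (grey) and the 36 measured HOX genes, coloured by cluster. Hoxc4, Hoxc6 and Hoxb13 are named, at 0.71, 0.78 and 1.06, and the other 33 HOX genes lie within 0.5 of 0. So do 20113 of all 21337 genes.

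Genes that work with the HOX proteins were counted in the same way, and lists this short cannot show whether they differ from all genes. Of all genes on the array 3.95% passed higher and 4.03% lower, with 12.2% and 11% at an unadjusted p under 0.05 in limma. Of the 9 TALE cofactors, the PBX, MEIS and PKNOX homeodomain proteins, 0 passed in limma in either direction, with 1 at an unadjusted p under 0.05. Large ratios among them were 0.29 ± 0.10 for Pbx3, 0.17 ± 0.20 for Meis2 and -0.17 ± 0.030 for Pknox1, and the list median was 0.063. Of 22 measured Polycomb and Trithorax genes, the silencing and activating chromatin regulators of the clusters, 0 passed, with 3 higher and 1 lower at an unadjusted p under 0.05. The histone H3K27 demethylase gene Kdm6a had 0.30 ± 0.11, the Polycomb genes Bmi1 and Cbx2 0.28 ± 0.20 and -0.22 ± 0.11, and Pcgf1 0.19 ± 0.0071, with a list median of 0.025. Cbx7 was not above background, and Kmt2a was not matched to a probe.

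Of 15 measured other upstream regulators of HOX genes, 0 passed higher and 2 lower, against 3.95% and 4.03% of all genes. At an unadjusted p under 0.05 in limma there were 2 and 4, against 12.2% and 11%. Zfp503, a zinc finger gene, had log2 signals of 14.41 and 14.38 in the NOGGIN-labelled channels and 14.79 and 14.92 in the control-labelled channels, and was lower at a log2 ratio of -0.46 ± 0.11 (adjusted p = 0.0347, limma). Zfp568 had -0.24 ± 0.0034 and the retinoic acid receptor gene Rarg 0.23 ± 0.044. Cdx2, Cdx4 and Cyp26c1 were not above background. The list median was 0.0067.

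Of 14 measured genes beside the clusters, 0 passed higher and 1 lower, against 3.95% and 4.03% of all genes. At an unadjusted p under 0.05 in limma there were 1 and 2, against 12.2% and 11%. Skap1, an adaptor gene of T cells that lies next to the Hoxb cluster, had log2 signals of 8.26 and 8.38 in the NOGGIN-labelled channels and 9.02 and 9.14 in the control-labelled channels, and was lower at -0.75 ± 0.00041 (adjusted p = 0.00829, limma). Evx1, a homeobox gene next to Hoxa13, had -0.38 ± 0.22 (adjusted p = 0.0965), Smug1 0.25 ± 0.13 and Snx10 0.16 ± 0.014. Evx2, Ttll6 and Calcoco2 were not above background, and Prac1 and Prac2 were not matched to a probe. The list median was -0.030.

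The last list holds genes of kidney and limb development, among them Gdnf, whose expression in kidney mesenchyme is lost in mice without the Hox11 genes. Of its 8 measured genes 2 were higher and 1 lower, against 3.95% and 4.03% of all genes. Bmper, which codes for a secreted regulator of BMPs, had log2 signals of 15.73 and 15.55 in the NOGGIN-labelled channels and 14.79 and 14.66 in the control-labelled channels, and was higher at 0.91 ± 0.036 (adjusted p = 0.00596, limma). Itga8, an integrin gene of kidney mesenchyme, was higher at 0.76 ± 0.085 (adjusted p = 0.00944). Gdnf, the growth factor that draws out the ureteric bud, was lower at -0.61 ± 0.30 (adjusted p = 0.0463, limma). As for Hoxb13, a p this close to the threshold may be too small. Its log2 signals were 8.42 and 7.98 in the NOGGIN-labelled channels and 8.82 and 8.81 in the control-labelled channels. The log2 ratio was -0.40 on replicate 1 and -0.83 on replicate 2. Eya1, a coactivator upstream of Gdnf, had 0.22 ± 0.095. The list median was 0.052, and Runx2 was not above background.

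Cell type markers moved between the same channels, beside 3.95% of all genes that passed higher and 4.03% lower, and 23.2% at an unadjusted p under 0.05 in limma. All 4 smooth muscle markers were lower in the NOGGIN-labelled channel, where their summed linear signals were 200054 and 214446, against 448521 and 444942 in the control-labelled channel. All 3 renal stroma markers were lower (NOGGIN-labelled 47990 and 44943, control-labelled 88054 and 104856), and of 7 ureteric mesenchyme markers 2 were higher and 3 lower (NOGGIN-labelled 239465 and 264731, control-labelled 397742 and 435641). That last sum rests mostly on the bright probes of Bmp4 and Aldh1a2, which were lower at -1.30 and -0.88, while Tbx18 and Gata6 were higher at 1.25 and 0.995 and the list median was 0.0087. One of 8 ureteric epithelium markers (NOGGIN-labelled 252413 and 248287, control-labelled 224766 and 245516), 1 of 5 nephron progenitor markers (NOGGIN-labelled 33183 and 36883, control-labelled 30251 and 30648) and 1 of 3 bud tip markers (NOGGIN-labelled 5764 and 4810, control-labelled 6566 and 6071) were lower. Of 4 urothelium markers 1 was higher (NOGGIN-labelled 11817 and 11378, control-labelled 8214 and 9192). In limma 0 of 4 endothelium markers passed (NOGGIN-labelled 21382 and 23568, control-labelled 18403 and 20068), with 1 at an unadjusted p under 0.05. Likewise 0 of 3 measured blood markers passed (NOGGIN-labelled 210562 and 188107, control-labelled 203727 and 187923), with 1 at that p, and 0 of 4 nerve markers (NOGGIN-labelled 98807 and 85134, control-labelled 73446 and 79494), with 2. Of the hindgut markers Cdx2 and Vil1 were not above background and Cdx1 did not pass. The part of these shifts in the HOX values was not tested.

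**Figure D4:**
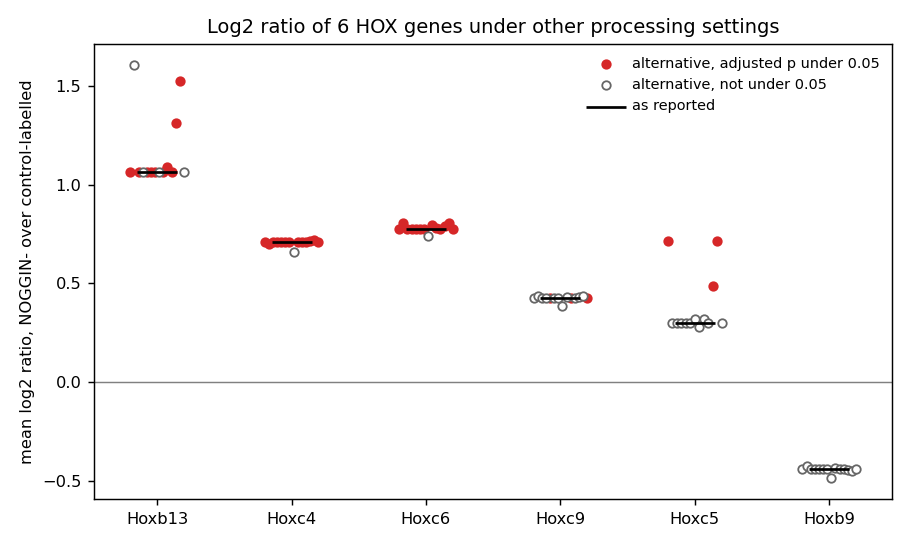
Mean log2 ratio of 6 HOX genes under the alternative processing settings (points) and as reported (bars), without the settings that turn the sign. Red points passed an adjusted p of 0.05. Hoxc4 and Hoxc6 stay between 0.66 and 0.81, Hoxb13 runs from 1.06 to 1.61, and Hoxb9 passes under none of the settings plotted.

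The 2 Hoxc calls were the steadier ones. Over 16 alternatives, with adjusted p thresholds of 0.01 and 0.1 and without the settings that turn the sign, the log2 ratio of Hoxc6 ran from 0.74 to 0.81 and passed in 15, with adjusted p between 0.00387 and 0.0956. That of Hoxc4 ran from 0.66 to 0.72 and passed in 14 (adjusted p 0.00414 to 0.103), and that of Hoxb13 from 1.06 to 1.61 in 11 of 16 (adjusted p 0.0182 to 0.204). With median centring in place of loess none of the 3 passed in limma, nor did any other gene on the array (3572 at an unadjusted p under 0.05). Hoxc5 passed with a normexp offset of 0, with the scanner software's processed signals and with the authors' deposited table. Hoxc9 passed in 4 of 16, with the threshold of 0.1 among them and an adjusted p just under 0.05 in the others. Scaling intensities between arrays leaves the ratios unchanged, and a threshold of 0.1 keeps every call. These alternatives are among the 16 but could not remove a call. Settings that changed only the filter on dim probes or the use of a gene's other probes also left the ratios of Hoxc4, Hoxc6 and Hoxb13 unchanged. These genes have no second probe.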

How the data were processed

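Each of the 2 arrays carried RNA of NOGGIN cultures and of control cultures. The deposited files give linear spot intensities. They come from Agilent Feature Extraction, version 10.7.3.1 in the submitters' processing notes. A log10 ratio, computed by that software per the file headers, was not used. The authors' deposited table gives each probe a score per array, a fold change that carries a sign, with negative reciprocals for ratios below 1 and a column median of 1. Its normalization is not given in the sources consulted. Over 16353 bright probes its log2 values had slopes of -1.01 and -1.01 on those computed here (r = -0.984 and -0.988). The scale thus matches for bright probes and the sign is the opposite. How its values were brought to that median, and which direction is right, stay unknown. For the dim genes Hoxc5 and Hoxb13 its mean log2 ratios, turned to the labels' direction, were larger, at 0.72 and 1.61 against 0.30 and 1.06 here.

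Outlier spots (3.69% per array) were left out. Background was corrected with normexp (offset 50), arrays were normalised by loess, and the spots of a probe, up to 4, were averaged. Signals per channel were taken after scaling intensities between arrays. Between 67.3% and 74.3% of gene spots were well above background and 0 were saturated. Probes were kept (26712) where over a share of 0.5 of the spots cleared the background flag on both arrays for at least 1 condition, and the brightest kept probe stood for a gene. Bounds set the brighter group's mean against the dim group's mean of, per array, the lowest signal well above background or the probe's own, whichever was higher. Probes were named through accessions in a RefSeq table of GRCm38.p6 (28328 named, 11101 not). No source names the array's genome build, and the coordinates printed are those of the RefSeq promoter table.

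Log2 ratios of 21337 genes were tested against 0 in two-sided tests with limma 3.58.1 (R 4.3.3), adjusted by Benjamini-Hochberg across them. There was 1 residual degree of freedom, and moderation added 4.12. A single simulated run was made without background correction and with noise drawn from the fitted spread. It held log2 changes of 1 and 2, each in 100 of 21337 genes. Of these changes, 97% and 100% were recovered, and 8.8% of the calls were false. Smaller changes, such as those of Hoxc4, Hoxc6 and most HOX genes, were not put in, so their recovery is unknown. The number of arrays limits the precision. The HOX genes, the other lists and the alternatives were chosen with earlier results of these data known, and the promoters, motifs and noncoding genes after values were seen. Named genes are the HOX genes and, per list, up to 4 that passed or had the largest ratios; some genes that this rule names are in the counts but not reported or plotted by name here. Alternatives covered background, normalization, filters, summaries, the deposited table, the form of the test and its threshold, single arrays and the sign.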

Additional observations from a re-analysis of the deposited data

How the results depend on the processing

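With median centring in place of loess, 0 genes passed in limma (3572 at an unadjusted p under 0.05), 0 HOX genes (9 unadjusted) and 0 genes of the HOX-related lists, against 1701, 3 and 6 as reported, and the HOX median was -0.070 while that of all genes was -0.038; the cause was not tested. At an adjusted p of 0.1, 2691 genes and 8 HOX genes passed, and at 0.01, 378 genes, 1 HOX gene (Hoxc6) and 3 list genes. The authors' deposited table, with its sign as given or turned, left 3 list genes. As given, it put Hoxb13 at -1.61, Hoxc4 at -0.70, Hoxc5 at -0.72 and Hoxc6 at -0.81. Turning the sign on both arrays put Hoxb13 at -1.06, Hoxc4 at -0.71 and Hoxc6 at -0.78, by construction. Single arrays gave a HOX median from -0.012 to 0.017 and from 3 to 4 HOX genes at 1.5-fold, with no test. Between 35 and 36 HOX genes were above background under the other rules tried. In the other settings between 2 and 4 HOX genes passed, and 0 passed lower except under the turned or as-given sign (3) and at an adjusted p of 0.1 (2, Hoxb9 and Hoxd11).

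The log2 ratios reported are themselves pairs, of the NOGGIN and control cultures on an array. No paired analysis was possible because, beyond that pairing, the replicate number as a block on the 2 ratios would leave no residual degrees of freedom. The slide as a block was not run, since per the file headers both arrays lie on 1 slide and share 1 scan time. Signal near background limits Hoxc5, for which only a bound exists.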
